A study of Mus musculus with 24 samples.

Results

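The SOX genes encode transcription factors that bind DNA through an HMG box related to that of SRY, the testis-determining factor. 10 SOX genes were followed in mouse ovarian surface epithelial (mOSE) cells: Sox4, Sox11 and Sox12 (group SOXC), Sox5, Sox6 and Sox13 (SOXD), Sox9 (SOXE), and Sox7, Sox17 and Sox18 (SOXF). They were chosen by gene symbol. All 10 had a row in each of the 3 expression tables, among 35687 genes in the spheroid table and 35688 in each of the others, and the same tables listed 10 other SOX genes.

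RNA sequencing of poly(A) RNA was available for 24 libraries in 8 groups of 3. The cell line m1102 gave 6 groups: spheroids of cells given 10 ng/mL TGFB1 (transforming growth factor beta 1, a cytokine) for 4 days before culture on low-attachment plates, untreated spheroids, monolayers given 10 ng/mL TGFB1, untreated monolayers, cells carrying a lentiviral Snail (Snai1) construct, and cells carrying the empty lentiviral vector WPI. The line mOSE_BRCA1_fl, from mice with floxed BRCA1 alleles, gave the other 2 groups: BRCA1 ko, infected with an adenovirus carrying Cre recombinase, and BRCA1 wt, infected with an adenovirus carrying GFP. All 24 libraries therefore came from cultured lines grown with EGF, and the labels do not say whether the replicates of a group were separate cultures, so the p-values measure the spread between these libraries. The titles of all 6 monolayer libraries, and of no spheroid library, say that they were analysed again from earlier data, so culture form and library origin cannot be told apart. Spheroid cells were given TGFB1 before spheroid culture, a schedule that the monolayers did not share. Where TGFB1 spheroids or their TGFB1 response are set against those of monolayers, culture form and TGFB1 schedule cannot be told apart either.

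The values are the deposited TPM-type values, which are transcript abundances per length, and are called scaled TPM here, because their sums differed between libraries. Levels of different genes within a table can be compared on this scale. The 3 tables were scaled separately, so each contrast was made within its own table. A log2 fold change below is the difference of group means of log2(scaled TPM + 1), with its standard error (SE), tested with limma over all genes that reached 1 scaled TPM in at least 3 libraries. An adjusted p (Benjamini-Hochberg over all genes tested) under 0.05 is a call, and a fold change on this scale understates the change of low genes.

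SOX proteins fall into groups by sequence, and members of a group often act redundantly. SOXC proteins activate transcription in embryonic progenitors of nerve, skeleton and mesenchyme, and SOX4 is known as a TGF-beta responsive gene in epithelial cells undergoing a mesenchymal transition. SOXD proteins lack a transactivation domain of their own, and SOX5 and SOX6 act with SOX9 on cartilage genes. SOX9 also drives testis development, where it specifies Sertoli cells in the supporting lineage of the gonad. SOXF proteins act in endothelium, and SOX17 also in endoderm.

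RefSeq promoter windows, from 250 bases before to 50 bases after the annotated start (GRCm38.p6), were available for 6 of the 10 genes (Sox4, Sox5, Sox6, Sox11, Sox12 and Sox13). The windows of Sox4 and Sox12 are shown because these 2 SOXC genes hold most of the SOX signal and were called in opposite directions in TGFB1-treated monolayers. The window of Sox6 is shown because Sox6 had the largest fold change among the 10 genes. Sox4 lies at chr13:28953650-28953949, Sox12 at chr2:152397997-152398296 and the most upstream of the 6 listed Sox6 windows at chr7:116038695-116038994, all on the minus strand. They are printed 5′ to 3′ in the sense of transcription, and capitals mark GGAATG, the TEAD element.

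Sox4: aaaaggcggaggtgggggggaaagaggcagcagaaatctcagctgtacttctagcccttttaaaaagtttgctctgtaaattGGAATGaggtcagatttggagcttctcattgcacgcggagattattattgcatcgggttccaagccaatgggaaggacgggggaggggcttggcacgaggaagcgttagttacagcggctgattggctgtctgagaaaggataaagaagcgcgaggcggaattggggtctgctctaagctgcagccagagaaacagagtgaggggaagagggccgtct
Sox12: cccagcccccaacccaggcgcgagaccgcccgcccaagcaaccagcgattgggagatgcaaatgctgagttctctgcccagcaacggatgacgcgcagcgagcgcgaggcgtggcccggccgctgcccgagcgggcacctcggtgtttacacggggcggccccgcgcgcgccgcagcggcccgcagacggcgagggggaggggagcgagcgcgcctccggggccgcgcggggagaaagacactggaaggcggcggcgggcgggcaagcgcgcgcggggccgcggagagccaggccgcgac
Sox6: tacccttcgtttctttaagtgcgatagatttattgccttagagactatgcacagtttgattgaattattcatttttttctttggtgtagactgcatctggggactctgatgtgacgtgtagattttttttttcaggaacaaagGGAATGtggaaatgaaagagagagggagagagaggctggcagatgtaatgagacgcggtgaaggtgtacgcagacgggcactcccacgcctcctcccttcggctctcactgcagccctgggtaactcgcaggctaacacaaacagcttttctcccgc

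GGAATG, searched on both strands, occurred once in the Sox4 window, at position -168 from the start, and once in the Sox6 window, at -107, and was not found in the Sox12 window. It is present in 14.7% of the 32851 promoter windows of this length. The Snail E-box CAGGTG (20.2% of windows), the SMAD element GTCTAGAC (0.213%) and the SOX core ACAAT (31.0%) had no match in these 3 windows. The GC content was 76.7% in the Sox12 window, 52.0% in the Sox4 window and 47.0% in the Sox6 window, against a median of 52.7% over all windows.

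In the gene models of GENCODE M21 (GRCm38), Sox4 (13:28948919-28953713, minus strand) and Sox11 (12:27334264-27342574, minus) each have 1 exon. Sox12 (2:152393611-152398063, minus) has up to 2 exons and Sox9 (11:112782224-112787760, plus) has 3. Sox5 (6:143828425-144781977, minus), Sox6 (7:115470872-116038796, minus) and Sox13 (1:133382303-133424377, minus) are long genes with up to 15, 17 and 14 exons. Of the SOXF genes, Sox7 lies at 14:63943673-63950732 (plus), Sox17 at 1:4490931-4497354 (minus) and Sox18 at 2:181669836-181671640 (minus). Genes annotated on the opposite strand overlap Sox4 (Gm26735), Sox5, Sox6 (Gm45025 and Sox6os) and Sox17 (Gm37587). The libraries were directional, but the strand setting of the quantification is not given in the sources used here, so reads of these antisense partners were not told apart.

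The summed values per library ran from 955433 to 1166749 in the spheroid table and from 983449 to 1021026 for the Snail and WPI libraries. In the BRCA1 table they ran from 796668 to 1810667, with wt replicates 1 and 3 highest. Read depth is unknown. BRCA1 wt replicate 2 stood apart, with correlations of 0.917 and 0.866 with wt replicates 1 and 3. Untreated spheroid replicate 3 had correlations of 0.970 with both of its partners, which correlated at 0.991 with each other. Snai1 had 233.6, 194.9 and 193.4 scaled TPM in Snail libraries, against 13.7, 10.1 and 9.81 in WPI libraries, a log2 fold change of 4.10 ± 0.13 (SE, n = 3 each, limma adjusted p = 2.54e-05). Brca1 had 5.35, 11.1 and 4.09 scaled TPM in the libraries labelled BRCA1 ko, against 4.27, 12.3 and 3.66 in those labelled BRCA1 wt (log2 fold change 0.09 ± 0.50 (SE, n = 3 each), limma adjusted p = 0.904). This level covers the whole gene and not only the floxed part, so it does not check the deletion, which the labels say was checked before RNA was collected. All directions for the BRCA1 pair below rest on the labels.

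Sox4 was the most abundant SOX gene in each of the 8 groups. It made up 71.6 to 90.2% of the summed scaled TPM of all 20 SOX genes in the 12 spheroid-table libraries, 58.4 to 67.4% among Snail and WPI libraries, and 42.4 to 64.9% among those of the BRCA1 pair. Sox12 came second in both monolayer groups and in all 4 groups of the other tables, and its values did not overlap those of Sox4 in any group. In spheroids the second place was shared: Sox9 averaged 19.5 ± 3.6 scaled TPM in TGFB1 spheroids, where Sox12 averaged 16.4 ± 2.8 (SD, n = 3 each), and the libraries of these genes overlapped. In untreated spheroids Sox9 averaged 15.4 ± 3.9 and Sox12 averaged 14.2 ± 4.6 scaled TPM (SD, n = 3), again with overlapping libraries.

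**Figure D1:**
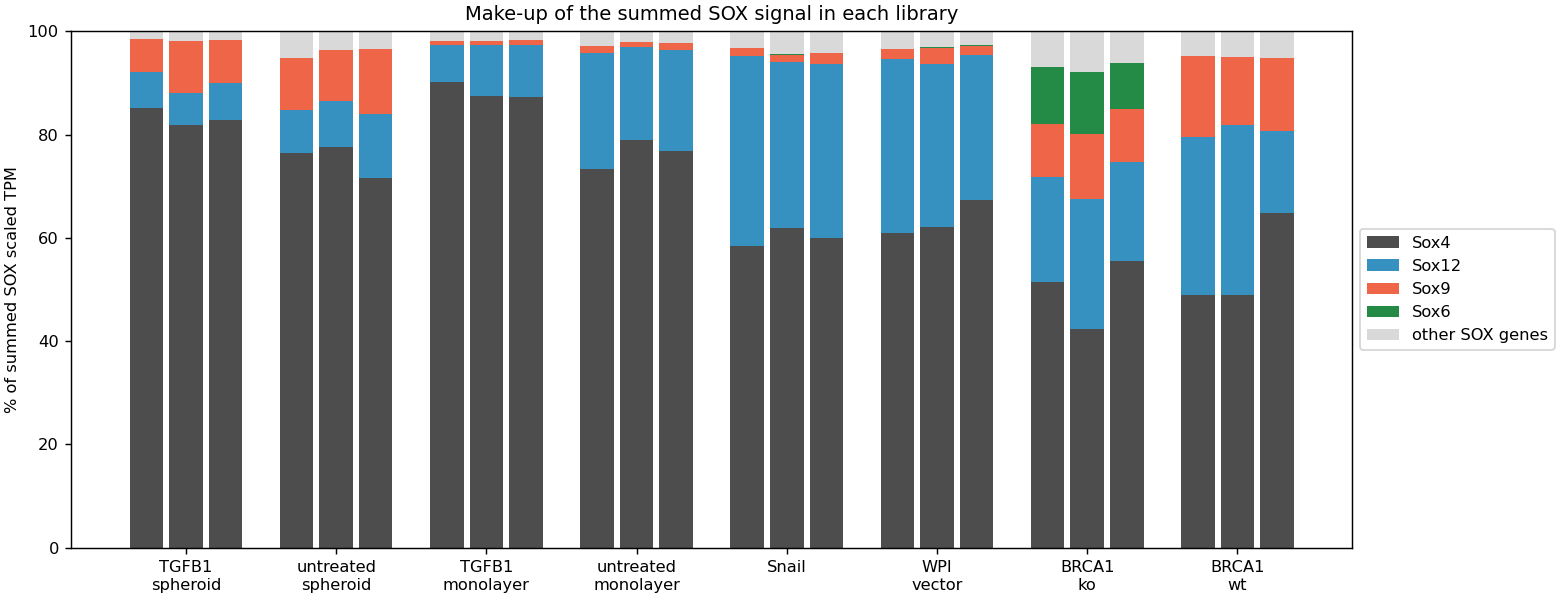
Share of Sox4, Sox12, Sox9, Sox6 and the remaining SOX genes in the summed scaled TPM of 20 SOX genes (y axis, %), one bar per library, in 8 groups of 3. Sox4 is the largest share throughout, Sox9 widens in the spheroid groups, and Sox6 is visible in the BRCA1 ko libraries, at 8.95 to 12.02%.

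The smaller members gave the groups their own profiles. Sox5 was present at 0.935 to 10.5 scaled TPM in all 24 libraries. Sox13 was at 2.33 to 3.20 scaled TPM in the monolayers of the spheroid table. It was at no more than 0.238 in the BRCA1 table, which holds another line and was scaled separately, so the 2 levels are not a contrast. Sox9, Sox13 and Sox5 overlapped one another in untreated monolayers, at 3.05 ± 0.07, 2.99 ± 0.25 and 2.84 ± 0.71 scaled TPM (SD, n = 3). Sox17, a regulator of endoderm that is also known from the oviduct, was listed at 0 in 23 of 24 libraries and at 0.203 scaled TPM in TGFB1 monolayer replicate 3. Sox7 was at or below 0.279 scaled TPM in every library. Of the 10 other SOX genes, only Sox8, the closest relative of Sox9, reached a group mean of 1 scaled TPM, while Sox2, Sox14, Sox21 and Sox30 were listed at 0 in every library of the spheroid table.

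The culture comparison asks how spheroids, a model of cells that have left the ovarian surface, differ from attached cells. Among untreated cells, Sox9 was about 5 times as high in spheroids as in monolayers, and Sox12, Sox4 and Sox13 were lower in spheroids. 5 of the 10 genes passed the filter on low values (Sox4, Sox5, Sox9, Sox12 and, through the monolayers where it is higher, Sox13). Of these, Sox9 rose (background 27.6% of genes higher), and Sox4 and Sox12 fell (background 27.7% lower). Sox13 also fell, but is left out of the comparison with all genes, because its monolayer values admitted it. In either direction 55.2% of all 13509 genes tested were called.

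Sox9 had 13.7, 12.7 and 19.9 scaled TPM in untreated spheroids, against 2.97, 3.09 and 3.10 in untreated monolayers. Every spheroid library was above every monolayer library. The log2 fold change was 1.99 ± 0.17 (SE, n = 3 each, limma adjusted p = 3.74e-06), a ratio of mean levels of 5.05. Under TGFB1, Sox9 had 17.5, 23.6 and 17.3 scaled TPM in spheroids, against 2.82, 3.43 and 3.29 in monolayers. The groups again did not overlap, and the log2 fold change was 2.28 ± 0.17 (SE, n = 3 each, limma adjusted p = 1.24e-06). The share of Sox9 in the summed SOX signal was 6.34 to 10.0% in TGFB1 spheroids and 0.800 to 0.932% in TGFB1 monolayers, and it was 9.84 to 12.5% in untreated spheroids and 1.07 to 1.28% in untreated monolayers.

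Sox12, a SOXC gene that overlaps in function with Sox4 and Sox11 in the mouse, had 11.6, 11.5 and 19.5 scaled TPM in untreated spheroids, against 53.3, 52.0 and 47.6 in untreated monolayers. The groups were well apart, and the log2 fold change was -1.81 ± 0.20 (SE, n = 3 each, limma adjusted p = 2.91e-05). In TGFB1-treated cells Sox12 had 19.6, 14.4 and 15.2 scaled TPM in spheroids, against 25.0, 35.8 and 35.9 in monolayers. The direction was the same and the log2 fold change was -0.93 ± 0.20 (SE, n = 3 each, limma adjusted p = 0.00288).

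Sox4 had 105.4, 100.2 and 113.6 scaled TPM in untreated spheroids, against 172.6, 227.5 and 186.8 in untreated monolayers. The spheroid libraries were all below the monolayer libraries, with a log2 fold change of -0.86 ± 0.12 (SE, n = 3 each, limma adjusted p = 0.000143). Under TGFB1 it had 235.4, 193.0 and 173.4 scaled TPM in spheroids, against 317.8, 321.9 and 309.8 in monolayers, a log2 fold change of -0.67 ± 0.12 (SE, n = 3 each, limma adjusted p = 0.000894). So Sox4 and Sox12, from the same group, were both lower in spheroids in both conditions.

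The SOXD genes divided. Sox13 had 0.255, 0.654 and 2.20 scaled TPM in untreated spheroids, against 3.06, 2.71 and 3.20 in untreated monolayers. Replicate 3, the library that stood apart, was the highest spheroid value but still below the monolayers, and the log2 fold change was -1.08 ± 0.29 (SE, n = 3 each, limma adjusted p = 0.00847). In TGFB1-treated cells Sox13 had 0.938, 0.295 and 0.429 scaled TPM in spheroids, against 2.33, 2.83 and 2.46 in monolayers (log2 fold change -1.21 ± 0.29 (SE, n = 3 each), limma adjusted p = 0.0051). Sox13 passed the filter through the monolayers: all 3 libraries of each monolayer group reached 1, against 1 untreated spheroid and 0 TGFB1 spheroids. Both adjusted p are therefore a description. With no filter on low values, the limma adjusted p was 0.0201 in untreated and 0.0129 in TGFB1-treated cells. Sox5 had 2.05, 1.42 and 2.68 scaled TPM in untreated spheroids, against 3.57, 2.80 and 2.16 in untreated monolayers. These ranges overlapped, and the log2 fold change of -0.34, with a 95% interval from -0.86 to 0.18, was not called (limma adjusted p = 0.247). Sox6 did not exceed 0.0875 scaled TPM in any library of the spheroid table.

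**Figure D2:**
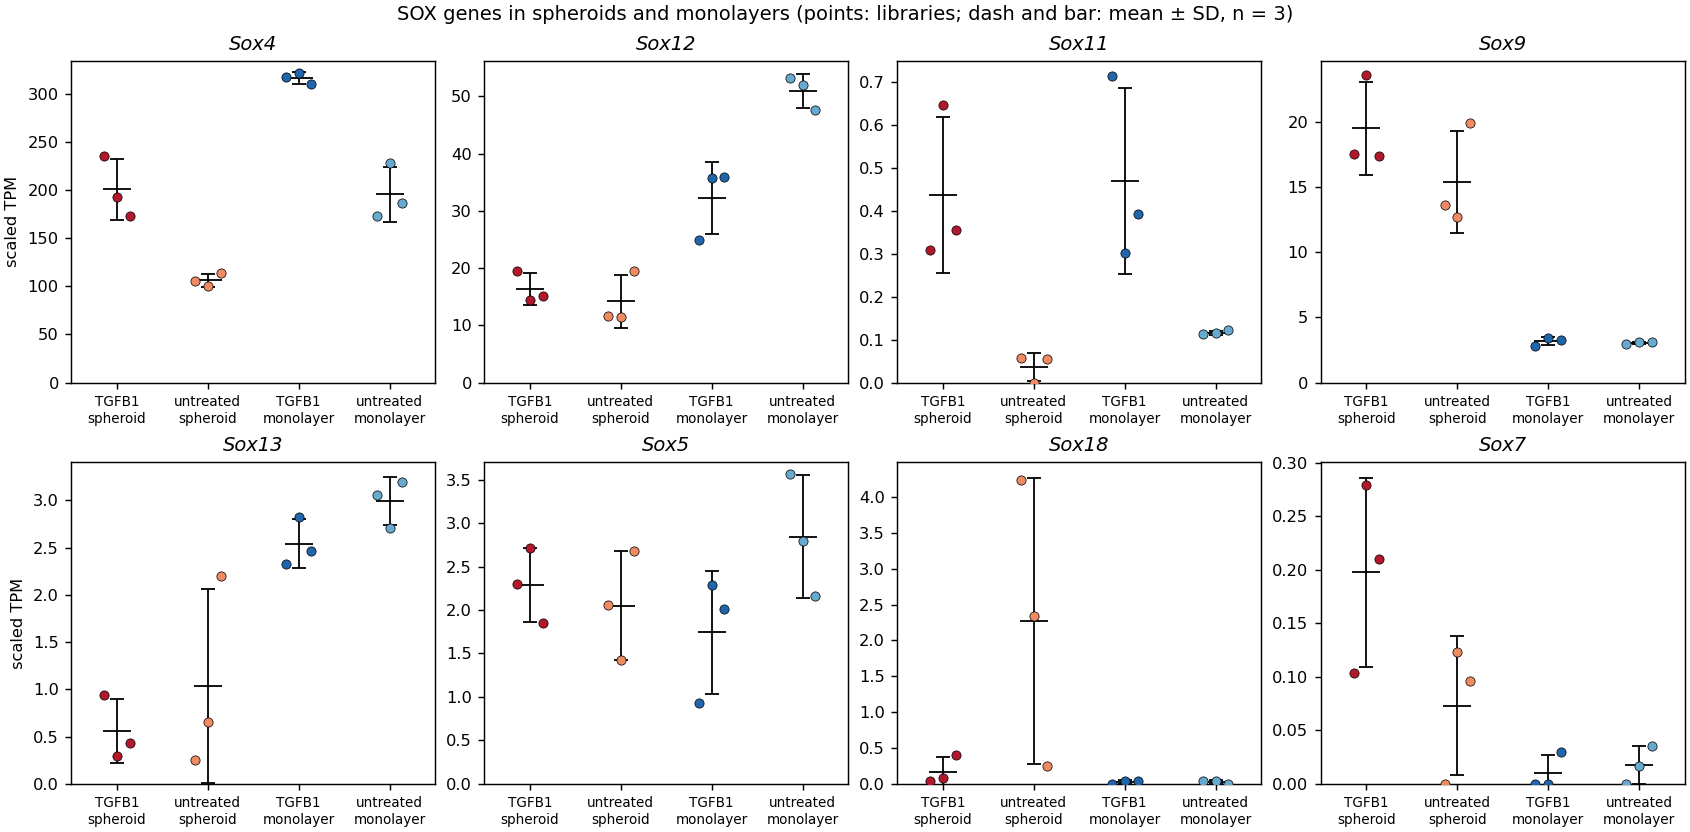
Scaled TPM (y axis, linear, from 0) of 8 SOX genes in TGFB1 spheroids, untreated spheroids, TGFB1 monolayers and untreated monolayers; points are libraries, dashes means and bars SD (n = 3), with bars that would pass below 0 cut off at the axis. Sox9 lies between 12.7 and 23.6 in the 6 spheroid libraries and between 2.82 and 3.43 in the 6 monolayer libraries. Sox12, Sox4 and Sox13 are lower in untreated spheroids than in untreated monolayers, and lower in TGFB1 spheroids than in TGFB1 monolayers.

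Under TGFB1, Sox9 was again called higher in spheroids than in monolayers, and Sox4 and Sox12 lower. Sox13 was lower too, but was again admitted by its monolayer values and is left out of the comparison with all genes. The background was 25.3% of genes higher, 26.5% lower and 51.9% called in either direction. Of all calls in this comparison 48.9% were higher, and 33.2% when libraries were scaled to equal sums, which moved the median of all genes to -0.15. The culture comparisons share no library with each other, but each shares its groups with the TGFB1 comparisons below. Markers of other kinds moved with culture form as well. The summed scaled TPM of 8 mitosis markers was 54.4 to 74.4 in untreated spheroids and 511 to 663 in untreated monolayers. All 8 were called lower, where 27.7% of all genes were lower. Of the 15 ovarian surface and mesothelial markers, Epcam was at 0 in both groups and the sum was 284 to 494 in untreated spheroids and 2251 to 2383 in untreated monolayers, with 10 of 11 tested genes lower. The sum of 8 Sertoli and granulosa markers was 140.6 to 154.2 in untreated spheroids and 70.5 to 82.4 in untreated monolayers, with Fshr at 0 in both. Their part in the SOX differences was not tested.

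TGFB1 is a standard inducer of the epithelial to mesenchymal transition, and the TGFB1 comparisons ask how cells respond to it in each culture form. Of the 5 SOX genes tested, Sox4 was the one called higher with TGFB1 in both. In monolayers 2 of 5 tested SOX genes were called, Sox4 higher (background 9.12% of genes higher) and Sox12 lower (7.79% lower), with 16.9% of all genes called in either direction. In spheroids 1 of 5 was called, Sox4 higher (background 18.8% higher, 16.8% lower, 35.6% in all). Of all calls in spheroids 52.9% were higher, and 29.8% with equal sums, where the median of all genes was -0.16. Markers moved with treatment too. The mitosis markers summed to 80.0 to 96.7 scaled TPM in TGFB1 spheroids and 54.4 to 74.4 in untreated spheroids, with 6 of 8 genes higher, and to 589 to 633 in TGFB1 monolayers and 511 to 663 in untreated monolayers, with none of 8 called. The ovarian surface and mesothelial markers summed to 1200 to 1565 in TGFB1 monolayers and 2251 to 2383 in untreated monolayers, with 4 of 11 tested genes lower, and to 267.0 to 496.9 in TGFB1 spheroids and 284.5 to 494.5 in untreated spheroids, where the sums overlapped and 7 of 11 genes were lower. The Sertoli and granulosa markers summed to 54.7 to 73.8 in TGFB1 spheroids and 140.6 to 154.2 in untreated spheroids, with 3 of 4 tested genes lower. In monolayers they summed to 47.3 to 59.1 with TGFB1 and 70.5 to 82.4 without, with 1 of 4 lower. Under TGFB1 the sums of this list thus overlapped between spheroids and monolayers. The part of these markers in the SOX values was not tested.

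With the library values given above, Sox4 in TGFB1 monolayers was 1.62 times the mean of untreated monolayers, a log2 fold change of 0.70 ± 0.12 (SE, n = 3 each, limma adjusted p = 0.00359). In TGFB1 spheroids it was 1.89 times the mean of untreated spheroids, a log2 fold change of 0.90 ± 0.12 (SE, n = 3 each, limma adjusted p = 0.000367). No treated library overlapped its untreated group in either culture form. The difference between these responses was 0.20 with a 95% interval from -0.18 to 0.58 (limma adjusted p = 0.479), so a difference in the Sox4 response was not detected. Both responses were called in all 6 single-library omissions of their comparison.

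Sox12 was 0.632 times as high in TGFB1 monolayers as in untreated monolayers, with groups that did not overlap and a log2 fold change of -0.66 ± 0.20 (SE, n = 3 each, limma adjusted p = 0.0471). This call was lost in each of the 6 single-library omissions, where the fold change ran from -0.75 to -0.49 and the adjusted p reached 0.175. It was also lost when the untreated monolayers 1 and 2, whose descriptions cite the same earlier sample, were averaged (adjusted p = 0.128). In spheroids the Sox12 groups overlapped, and the log2 fold change with TGFB1 was 0.22 with a 95% interval from -0.23 to 0.67 (limma adjusted p = 0.422). The TGFB1 response of Sox12 in spheroids minus that in monolayers was 0.89 ± 0.29 (SE, n = 3 in each of 4 groups, limma adjusted p = 0.0598). Without untreated spheroid replicate 3 it was 1.12 with an adjusted p of 0.00772. None of the 5 tested members passed the test of this difference in the fit of all libraries, against a background of 15.8% of genes called (8.72% higher and 7.11% lower). Of these calls 55.1% were higher, and 27.8% with equal sums, where the median of all genes was -0.21. 1 member had an unadjusted p under 0.05, as did 4123 of all genes.

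Sox11, the third SOXC gene and a driver of neural differentiation, was below the filter in the spheroid table but went the way of Sox4. It had 0.310, 0.646 and 0.356 scaled TPM in TGFB1 spheroids, against 0.0565, 0 and 0.0552 in untreated spheroids. In monolayers it had 0.714, 0.302 and 0.394 scaled TPM with TGFB1, against 0.113, 0.116 and 0.122 without. All 6 treated libraries were above all 6 untreated ones, at levels under 1 scaled TPM. With no filter on low values, the difference was 0.46 on the log2 scale in spheroids (limma adjusted p = 0.0136) and 0.39 in monolayers (limma adjusted p = 0.0598).

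Sox9 had overlapping libraries with and without TGFB1 in both culture forms. Its log2 fold change was 0.33 in spheroids, with a 95% interval from -0.04 to 0.70 (limma adjusted p = 0.146), and 0.04 in monolayers, with an interval from -0.33 to 0.41 (limma adjusted p = 0.918). Without untreated spheroid replicate 3, its highest untreated value, the difference in spheroids was 0.52 and was called (limma adjusted p = 0.0171). Sox5 and Sox13 were not called with TGFB1 in either form. The log2 fold change of Sox5 was 0.12 in spheroids (95% interval -0.40 to 0.64) and -0.51 in monolayers (-1.03 to 0.01), and that of Sox13 was -0.30 in spheroids (-0.94 to 0.35) and -0.17 in monolayers (-0.81 to 0.47).

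Sox8, the SOXE relative of Sox9 outside the 10 genes, was low in all but the TGFB1 monolayers of this table. It had 2.71, 1.001 and 1.12 scaled TPM in TGFB1 monolayers, against 0.0434, 0.0559 and 0.0826 in untreated monolayers. It had 0.159, 0.135 and 0.0581 scaled TPM in TGFB1 spheroids, against 0.0198, 0 and 0 in untreated spheroids. Sox8 passed the filter only through the 3 TGFB1 monolayers, so its difference there is given as values alone.

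**Figure D3:**
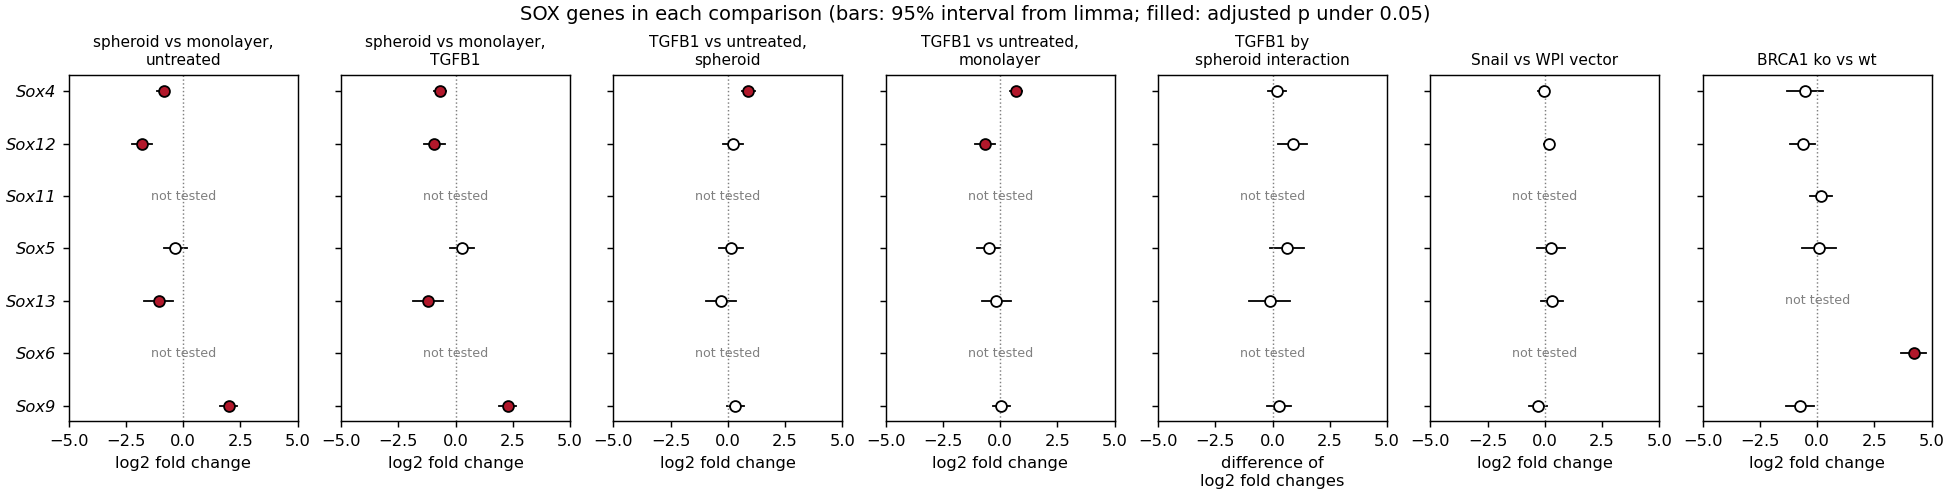
Log2 fold change with its 95% interval (x axis) of 7 SOX genes (rows) in each of 7 comparisons (panels; the interaction panel shows a difference of log2 fold changes); filled points are called at an adjusted p under 0.05, and rows marked as not tested were below the filter. Sox9 is the called gene to the right in both culture panels, Sox4 is to the right in both TGFB1 panels, and Sox6 stands at 4.21 in the BRCA1 panel.

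The SOXF genes were low throughout. Sox18, which acts in vascular and lymphatic development, had 4.24, 2.34 and 0.244 scaled TPM in untreated spheroids, against 0.0427, 0.0366 and 0 in untreated monolayers. In TGFB1-treated cells it had 0.0344, 0.0757 and 0.4003 scaled TPM in spheroids, against 0, 0.0418 and 0.0323 in monolayers. The untreated spheroids were thus spread over a wide range, with replicate 3 the lowest, and overlapped the TGFB1 spheroids. Only 2 libraries reached 1 scaled TPM, so Sox18 was below the filter, and without a filter its culture difference among untreated cells was 1.44 ± 0.41 on the log2 scale (SE, n = 3 each, limma adjusted p = 0.0209). Sox7 had 0.104 to 0.279 scaled TPM in TGFB1 spheroids and 0 to 0.0298 in TGFB1 monolayers, and without a filter this difference was 0.24 (limma adjusted p = 0.00822). In bulk RNA, fewer cells of a type and less RNA per cell cannot be told apart.

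The vascular list put beside the SOXF genes had 20 genes, 11 of them tested in the spheroid table. In untreated spheroids against untreated monolayers 6 were higher and 2 lower (median log2 fold change 0.62, all genes 0.01), where 55.2% of all genes were called. Dll4, a NOTCH ligand of arteries, averaged 1.89 ± 0.37 scaled TPM in untreated spheroids and 0.0150 ± 0.0147 in untreated monolayers (SD, n = 3). Cdh5 (VE-cadherin, the adherens junction protein of endothelium) had 51.3, 32.8 and 23.9 scaled TPM in TGFB1 spheroids, against 3.44, 1.41 and 0.668 in untreated spheroids, a log2 fold change of 3.76 ± 0.34 (SE, n = 3 each, limma adjusted p = 2.36e-05). Cdh5 passed the filter only with the TGFB1 spheroids, the group where it is high, so this adjusted p is a description. TGFB1 called 4 of the 11 genes higher and 4 lower in spheroids (median -0.10, all genes 0.00), where 35.6% of all genes were called. Cdh5 is counted as higher in both comparisons. Robo4, an endothelial guidance receptor gene, had 0.574, 1.28 and 9.79 scaled TPM in TGFB1 spheroids, against 25.9, 27.5 and 9.25 in untreated spheroids, a log2 fold change of -2.55 ± 0.62 (SE, n = 3 each, limma adjusted p = 0.00878). The groups of Robo4 overlapped through replicate 3 of each. Emcn (endomucin) was below the filter, at 0.0421, 0 and 0.117 scaled TPM in TGFB1 spheroids, against 1.07, 0.901 and 0.652 in untreated spheroids. The endothelial marker Kdr was at or below 0.0436 scaled TPM in all 12 libraries and Cldn5 was listed at 0 in each, while Vwf reached 1.70 and Pecam1 2.14 scaled TPM in untreated spheroid replicate 2. The part of endothelial RNA in the Sox18 values was not tested.

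A short list of 6 genes associated with SOX4 and SOX11 in other tissues was described beside Sox4. It held Tead2, which encodes a partner of YAP, Ezh2, which encodes the histone H3K27 methyltransferase, Dbn1, which encodes the actin-binding protein drebrin, and the neuronal genes Tubb3, Dcx and Stmn2. The 3 neuronal genes were at or below 0.372 scaled TPM in every spheroid-table library and were not tested. Tead2 had 68.8, 62.9 and 49.6 scaled TPM in TGFB1 spheroids, against 18.8, 23.6 and 21.6 in untreated spheroids, and 97.4, 93.4 and 94.3 in TGFB1 monolayers, against 34.5, 43.2 and 35.8 in untreated monolayers. The treated libraries were above the untreated ones in both forms. Its log2 fold changes were 1.45 ± 0.13 in spheroids and 1.31 ± 0.13 in monolayers (SE, n = 3 each, limma adjusted p = 2.28e-05 and 0.000169). Dbn1 rose by a log2 fold change of 1.17 ± 0.12 in spheroids and 1.09 ± 0.12 in monolayers (SE, n = 3 each, limma adjusted p = 7.41e-05 and 0.000367). Ezh2 was not called with TGFB1 in either form. Of all genes, 35.6% were called with TGFB1 in spheroids and 16.9% in monolayers. All 3 listed genes tested were lower in spheroids, with a median log2 fold change of -1.0 among untreated cells (all genes 0.01) and -1.02 under TGFB1 (all genes 0.00). Those culture comparisons called 55.2% and 51.9% of all genes.

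Across the 12 libraries of the spheroid table, Dbn1 was also 1 of the 3 genes whose log2 level was most like that of Sox4 (Pearson r = 0.981), with Spast (0.988) and Trim62 (0.982). The most like Sox12 were Pla2g16 (0.993), Cbx6 (0.992) and Rhbdl3 (0.987), and the most like Sox9 were Camk2n2 and Plekhn1 (both 0.989) and Gtpbp6 (0.988). These correlations describe 12 libraries in 4 groups, which share culture form and treatment.

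The cartilage list of genes under SOX9, SOX5 and SOX6 had 15 genes with a row, of which 5 were tested. The defining cartilage genes stayed at or near 0: Col2a1 (type II collagen) and Acan (aggrecan) were both at or below 0.212 scaled TPM in every library of the spheroid table. In untreated spheroids 3 tested genes rose and 1 fell against untreated monolayers (median log2 fold change 0.52, all genes 0.01), where 55.2% of all genes were called. Chst11, a chondroitin sulfotransferase, rose by 0.87 ± 0.18 (SE, n = 3 each, limma adjusted p = 0.00183) and Col11a2, a minor fibrillar collagen chain, by 0.87 ± 0.23 (adjusted p = 0.00673). Wwp2, a ubiquitin ligase whose gene holds the microRNA miR-140, rose by 0.29 ± 0.10 (adjusted p = 0.0308), a call lost in 4 of 6 single-library omissions. Fgfr3, the receptor that restrains growth plate chondrocytes, fell by 1.14 on the log2 scale (adjusted p = 0.00095).

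TGFB1 called none of these 5 genes in monolayers and 3 of 5, all higher, in spheroids (median 1.10, all genes 0.00). The shares of all genes called were 16.9% in monolayers and 35.6% in spheroids. Wwp2 had 80.9, 72.7 and 61.5 scaled TPM in TGFB1 spheroids, against 32.4, 30.4 and 35.9 in untreated spheroids, and 26.3, 25.2 and 27.6 in TGFB1 monolayers, against 27.7, 25.5 and 26.8 in untreated monolayers. The TGFB1 spheroids stood above the other 3 groups. The TGFB1 response in spheroids minus that in monolayers was 1.11 ± 0.14 for Wwp2 (adjusted p = 0.000777), 1.16 ± 0.25 for Chst11 (adjusted p = 0.0115) and 1.33 ± 0.30 for Fgfr3 (adjusted p = 0.0134; SE, n = 3 in each of 4 groups, limma). Sox9 was not called with TGFB1 in spheroids in the fit of all libraries, but was called without untreated spheroid replicate 3. Its part in the changes of these genes was not tested.

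**Figure D4:**
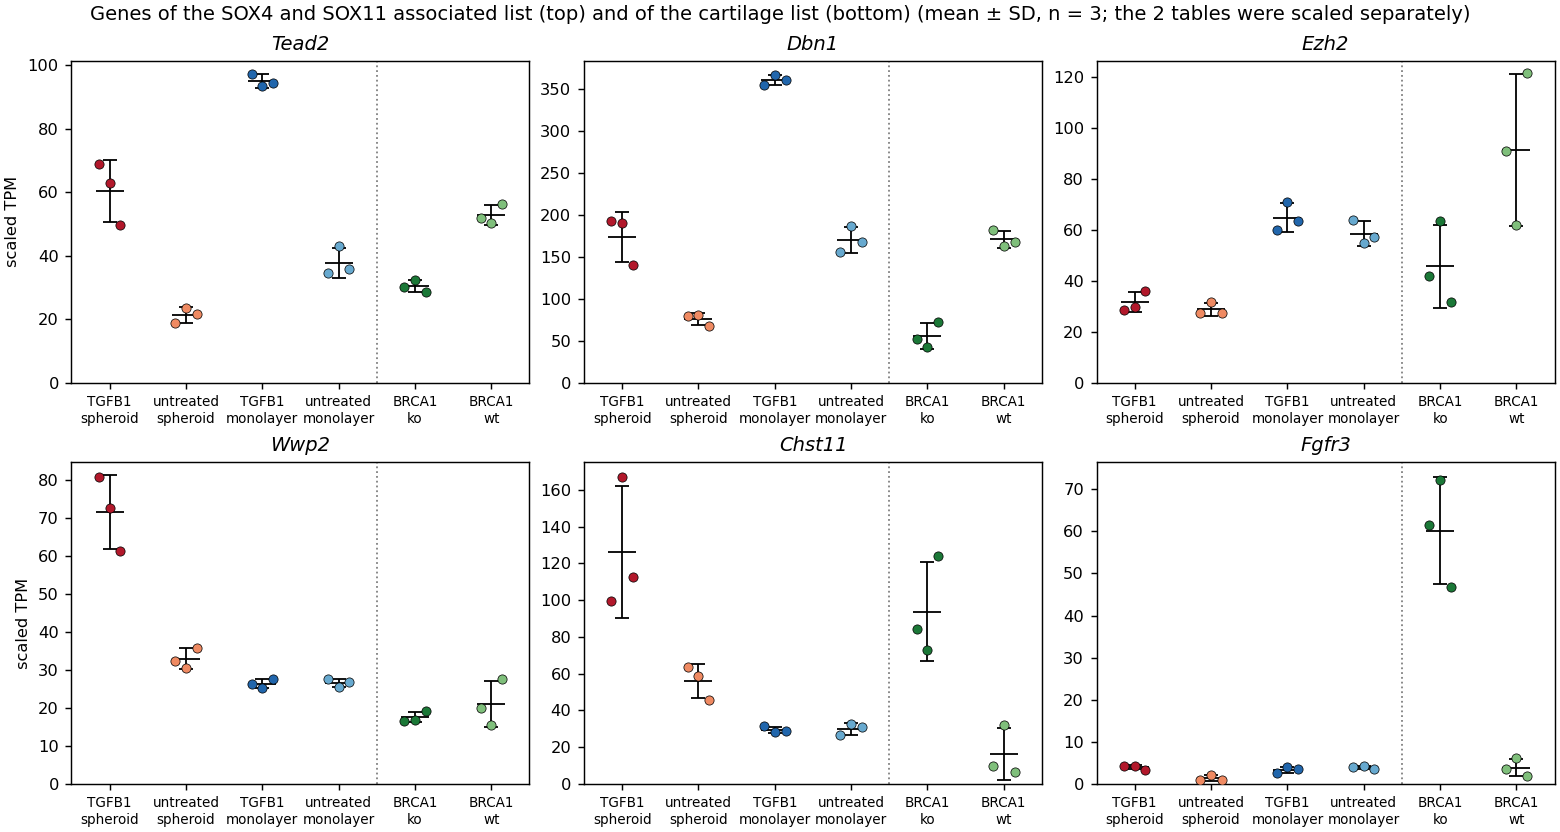
Scaled TPM (y axis, linear, from 0) of Tead2, Dbn1 and Ezh2 (top) and of Wwp2, Chst11 and Fgfr3 (bottom) in the 4 groups of the spheroid table and, right of the dotted line and scaled separately, the BRCA1 groups; points are libraries, dashes means and bars SD (n = 3). Tead2 and Dbn1 are higher with TGFB1 in spheroids and in monolayers, and Wwp2 is highest in TGFB1 spheroids, at 61.5 to 80.9.

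The gonadal list, which holds genes that act around SOX9 in sex determination, had 10 of 16 genes tested in the spheroid table. Of these, 6 were higher and 4 lower in untreated spheroids against untreated monolayers (median log2 fold change 0.61, all genes 0.01), where 55.2% of all genes were called. Among them Rspo1, an ovary-determining WNT agonist, averaged 1.83 ± 1.35 scaled TPM in untreated spheroids and 56.0 ± 3.2 in untreated monolayers (SD, n = 3; log2 fold change -4.43 ± 0.43 (SE), limma adjusted p = 1.09e-05). Ptgds, a prostaglandin D synthase that SOX9 activates in the mouse testis, averaged 65.2 ± 15.1 scaled TPM in untreated spheroids and 2.49 ± 1.02 in untreated monolayers (SD, n = 3; log2 fold change 4.26 ± 0.79 (SE), limma adjusted p = 0.000888). TGFB1 lowered Ptgds in spheroids by 3.43 on the log2 scale (adjusted p = 0.00644), where 1 gene of the list rose and 6 fell, against 35.6% of all genes called. Cyp26b1, counted in both comparisons, passed the filter only through the untreated spheroids, where it was high. Amh, the hormone gene that SOX9 activates in Sertoli cells, was at or below 0.864 scaled TPM in all 12 libraries, and the testis gene Dmrt1 was listed at 0 in each.

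Lists around the other SOX roles were mixed in the same fit, where 55.2% of all genes were called between untreated spheroids and untreated monolayers. Of 6 tested WNT target and feedback genes 2 rose and 2 fell in untreated spheroids, with Axin2 at 7.28 ± 1.19 scaled TPM in untreated spheroids and 51.7 ± 4.2 in untreated monolayers (SD, n = 3; log2 fold change -2.68 ± 0.15 (SE), limma adjusted p = 2.9e-07). Of 7 tested endoderm genes 2 rose and 2 fell. Of 4 tested oviductal epithelium markers 2 rose and 1 fell, of 4 tested glial and neural crest markers 2 fell, and the 1 tested leukocyte marker was not called.

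Snail is a zinc-finger repressor of epithelial genes, and its overexpression asks what it does without TGFB1. None of the 5 tested SOX genes was called between Snail and WPI libraries, where 210 of 12240 genes (1.72%) were called, 0.572% higher and 1.14% lower. None of the 5 had an unadjusted p under 0.05, against 1813 of all genes. Sox4 had 127.6, 135.2 and 113.5 scaled TPM in Snail libraries, against 122.5, 116.0 and 148.5 in WPI libraries. These overlapped, and the log2 fold change of -0.04 had a 95% interval from -0.28 to 0.20 (limma adjusted p = 0.922).

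Sox12 had 80.6, 70.1 and 63.5 scaled TPM in Snail libraries, against 67.7, 59.4 and 61.5 in WPI libraries (log2 fold change 0.18, 95% interval -0.04 to 0.40). Sox9 had 3.23, 3.13 and 4.06 scaled TPM in Snail libraries, against 3.71, 5.72 and 4.22 in WPI libraries (log2 fold change -0.30, 95% interval -0.68 to 0.08). The groups overlapped for both genes. Sox13 averaged 4.94 ± 1.61 scaled TPM in Snail libraries and 3.66 ± 0.36 in WPI libraries, and Sox5 averaged 2.73 ± 0.86 and 2.14 ± 0.89 in the same groups (SD, n = 3 each). Sox11 was between 0.275 and 0.360 scaled TPM in all 6 libraries, Sox6 at or below 0.196 and Sox18 at or below 0.0634. Of the 3 tested genes of the SOX4 and SOX11 list, Tead2 was called higher, at 42.5 ± 1.2 scaled TPM in Snail libraries and 30.7 ± 1.9 in WPI libraries (SD, n = 3; log2 fold change 0.46 ± 0.07 (SE), limma adjusted p = 0.0241), a call lost in 5 of 6 single-library omissions. Of the 5 tested cartilage genes Chst11 was lower (-0.43, limma adjusted p = 0.0216, lost in 6 of 6 omissions). In the vascular list 1 of 7 tested genes was higher (Egfl7), no gene of the gonadal (8 tested), endoderm (7) or WNT (5) list was called, and neither was any mitosis marker. Of 11 tested ovarian surface and mesothelial markers, 1 was higher (Upk3b) and 2 were lower (Krt18 and Msln), where 1.72% of all genes were called. Single-library omissions lost the calls of Upk3b and Krt18 in 5 of 6 each and that of Msln in none. The summed markers overlapped, at 2183 to 2523 scaled TPM in Snail and 2305 to 2584 in WPI libraries.

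In the BRCA1 experiment, which compares Cre-infected with GFP-infected floxed cells, Sox6 was the SOX gene that differed most. It had 21.2, 22.9 and 16.2 scaled TPM in the libraries labelled BRCA1 ko, against 0.248, 0.0765 and 0.0611 in those labelled BRCA1 wt. Every ko library was far above every wt library. The ratio of mean levels was 156.2. Sox6 passed the filter only through the ko group, so its log2 fold change of 4.21 ± 0.23 and adjusted p of 0.000542 in the limma fit of filtered genes (SE, n = 3 each) are given as a description. With no filter on low values, the log2 fold change was 4.21 ± 0.26 (SE, n = 3 each) with a limma adjusted p of 0.0088. In the fit of filtered genes the fold change ran from 4.12 to 4.35 over the 6 single-library omissions. In the other 18 libraries, all from the line m1102 and scaled separately, Sox6 was at or below 0.196 scaled TPM. In ko libraries it reached the level of Sox9, whose values overlapped it, and 8.95 to 12.02% of the summed SOX signal, against 0.0182 to 0.112% in wt libraries. In the authors' deposited table the natural-log coefficient of Sox6 was 4.91 with a q-value of 3.85e-26.

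Of the 6 SOX genes that passed the filter, Sox6 was admitted by its ko values and is left out of this count. None of the other 5 was called, against a background of 14.3% of 12775 genes called, 9.04% higher and 5.27% lower. The median log2 fold change of all genes in this comparison was 0.17. When each library was scaled to an equal sum, the median of all genes was 0.63 and 79.4% of calls were higher, against 63.2% in the values as deposited, so small changes in this pair depend on the scaling.

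Sox9 had 20.0, 24.1 and 18.5 scaled TPM in ko libraries, against 34.5, 28.0 and 47.8 in wt libraries. The groups did not overlap, but the log2 fold change of -0.77 ± 0.26 (SE, n = 3 each) was not called (limma adjusted p = 0.0785). Sox12 had 39.4, 47.8 and 34.8 scaled TPM in ko libraries, against 67.8, 70.6 and 52.9 in wt libraries, again without overlap, and its log2 fold change was -0.64 ± 0.23 (SE, n = 3 each, limma adjusted p = 0.0855). Without BRCA1 wt replicate 2, the library that stood apart, both were called: Sox9 at -0.94 (adjusted p = 0.00586) and Sox12 at -0.56 (adjusted p = 0.0404), among 8420 called genes, against 1828 with it. The authors' deposited table also listed both as lower in ko, with q-values of 0.0131 for Sox9 and 0.0347 for Sox12.

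Sox4 had 99.3, 80.7 and 100.9 scaled TPM in ko libraries, against 108.6, 104.8 and 218.1 in wt libraries. All ko values were below the wt values, of which replicate 3 was by far the highest and came from the library with the largest sum. The log2 fold change was -0.54 with a 95% interval from -1.30 to 0.23 (limma adjusted p = 0.234), and 0.00 when libraries were scaled to equal sums. Sox5, the SOXD partner of Sox6, had 7.65, 6.82 and 6.19 scaled TPM in ko libraries, against 4.58, 5.36 and 10.5 in wt libraries, and overlapped (log2 fold change 0.08, 95% interval -0.68 to 0.84). Sox11 had 2.22, 1.67 and 1.90 scaled TPM in ko libraries, against 1.30, 1.92 and 1.70 in wt libraries (log2 fold change 0.15, 95% interval -0.33 to 0.64).

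Sox18 and Sox13, both below the filter, had groups that did not overlap. Sox18 had 1.20, 2.80 and 0.907 scaled TPM in ko libraries, against 0.449, 0.222 and 0.617 in wt libraries, a difference of 0.83 without a filter (limma adjusted p = 0.143). Sox13 had 0.0445, 0.0607 and 0.0149 scaled TPM in ko libraries, against 0.127, 0.238 and 0.184 in wt libraries, a difference of -0.18 without a filter (limma adjusted p = 0.0859). Of the endothelial markers, Kdr had 5.81, 3.62 and 8.73 scaled TPM in ko libraries, against 2.01, 4.83 and 0.675 in wt libraries, which overlapped, and Cdh5 was at or below 0.0234 in all 6. The authors' deposited table gave q-values of 0.114 for Sox18 and 0.0436 for Sox13.

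**Figure D5:**
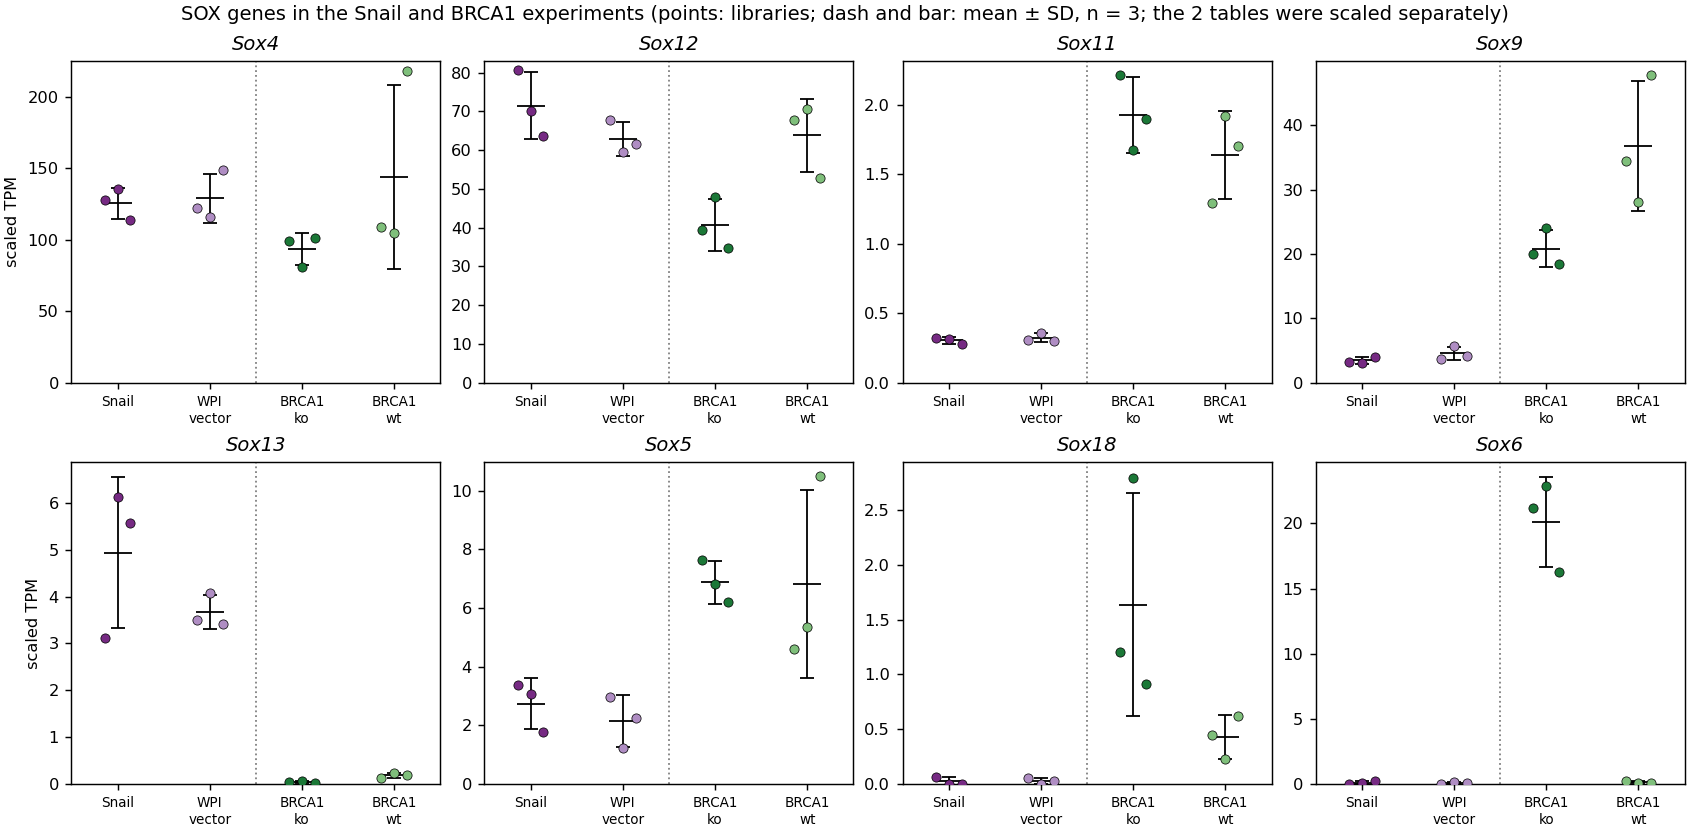
Scaled TPM (y axis, linear, from 0) of 8 SOX genes in Snail and WPI vector libraries and, right of the dotted line and scaled separately, in BRCA1 ko and BRCA1 wt libraries; points are libraries, dashes means and bars SD (n = 3). Sox6 lies between 16.2 and 22.9 in BRCA1 ko libraries and at no more than 0.248 in BRCA1 wt libraries, while the Snail and WPI libraries overlap for all 8 genes.

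Of the 5 tested genes of the cartilage list 3 were higher in ko libraries (median 0.92, all genes 0.17), where 14.3% of all genes were called. Fgfr3 had 61.4, 72.1 and 46.8 scaled TPM in ko libraries, against 3.54, 6.07 and 1.89 in wt libraries, a log2 fold change of 3.73 ± 0.37 (SE, n = 3 each, limma adjusted p = 0.00269). Chst11 had 84.2, 72.6 and 124.0 scaled TPM in ko libraries, against 9.43, 32.2 and 6.35 in wt libraries, a log2 fold change of 2.76 ± 0.55 (SE, n = 3 each, limma adjusted p = 0.0246). Col9a3, a chain of cartilage collagen IX, was higher by 0.87 ± 0.23 (limma adjusted p = 0.049). The Chst11 and Col9a3 calls were each lost in 5 of 6 single-library omissions, and that of Fgfr3 in none. The cartilage genes Acan, Col11a1 and Matn1 were at 0 in both groups, and Col2a1 was at or below 0.136 scaled TPM in all 6 libraries.

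Of the SOX4 and SOX11 list, Tead2 averaged 30.4 ± 1.9 scaled TPM in ko libraries and 52.9 ± 3.1 in wt libraries, and Dbn1 averaged 55.9 ± 15.4 and 171.2 ± 10.0 in the same groups (SD, n = 3 each). Both were called lower, Tead2 by a log2 fold change of -0.78 ± 0.19 and Dbn1 by -1.63 ± 0.25 (SE, n = 3 each, limma adjusted p = 0.042 and 0.0102). These calls were lost in 5 of 6 and in 2 of 6 single-library omissions, and with libraries scaled to equal sums the adjusted p was 0.575 for Tead2 and 0.101 for Dbn1. In the gonadal list 4 of 10 tested genes were higher in ko libraries, among them Emx2, a homeobox gene needed for the early gonad, at 29.1 ± 4.9 scaled TPM in ko libraries and 5.62 ± 1.10 in wt libraries (SD, n = 3; log2 fold change 2.19 ± 0.25 (SE), limma adjusted p = 0.00399). Single-library omissions lost the call of Emx2 in none of 6, that of Fgf9 in 3, and those of Gata4 and Ptgds in 5 each. Of 8 tested WNT target and feedback genes 2 rose and 1 fell, of 6 tested endoderm genes 1 rose and 1 fell, and none of 7 tested vascular genes was called. Of all genes in this comparison 14.3% were called, 9.04% higher and 5.27% lower.

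Markers of other cell states also differed in this pair. The sum of 8 Sertoli and granulosa markers was 832 to 845 scaled TPM in ko libraries and 302 to 448 in wt libraries, with 3 of 4 tested genes higher, where 14.3% of all genes were called. The sum of 8 mitosis markers was 180.1 to 605.9 in ko libraries and 637 to 734 in wt libraries, with 1 of 8 genes called lower. The 15 ovarian surface and mesothelial markers summed to 2993 to 3154 in ko libraries and 3084 to 3480 in wt libraries, with 1 of 12 tested genes higher and 2 lower. Most of these calls were lost in single-library omissions. Of 6 omissions, 5 lost those of the Sertoli and granulosa markers Amhr2 and Gata4, and 1 that of Inha. The call of the mitosis marker Plk1 was lost in 4. Among the surface markers, Krt8 and Krt18 were each lost in 5 and Msln in 4. No glial and neural crest, leukocyte or oviductal epithelium marker was called. The part of these markers in the SOX differences was not tested.

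In the authors' deposited table for the spheroid experiment, each gene has 1 q-value over culture, treatment and their interaction. It was 1.42e-06 for Sox4, 1.19e-07 for Sox9, 2.01e-05 for Sox12, 0.004 for Sox13, 0.00208 for Sox11 and 0.115 for Sox5. The natural-log coefficient of culture was 1.53 for Sox9, -1.38 for Sox12, -0.67 for Sox4 and -1.47 for Sox13, the same signs as above. Sox6, Sox7, Sox17 and Sox18 are not listed in that table. In the authors' deposited Snail table none of the 6 listed SOX genes had a q-value under 0.05, the lowest being 0.59 for Sox12.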

How the data were processed

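Poly(A) RNA of 24 libraries was sequenced, and per the submitters' processing notes it was quantified with kallisto 0.44.0 and tested with sleuth 0.30.0 on GRCm38. The authors deposited gene-level TPM-type values, a signal whose sums differ between libraries and from which depth is not known, called scaled TPM here. The deposited comparison tables hold natural log coefficients with p-values and q-values; a script copied those quoted. Levels were taken as deposited, and log2(scaled TPM + 1) was tested with limma 3.58.1 (R 4.3.3, trend) on genes at 1 or more in at least 3 libraries, with Benjamini-Hochberg adjustment. The 12 spheroid-table libraries were fitted together and the Snail and BRCA1 tables apart, with a mean per group. The tests had been planned for TPM; the unit found needed the same ones. The fit was tested on simulated data. The 10 genes, the 13 lists of 136 genes (named in the report, with up to 4 called genes named per list and comparison) and the tests were chosen with earlier results of these data known. Alternatives changed the pseudocount, filter, scaling, library weights, replicate block and libraries used. All value columns were mapped to a sample. 1 list gene called in the interaction test is not reported here.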

Additional observations from a re-analysis of the deposited data

Results flagged for a closer look

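Genes named here differed between culture forms in their response to TGFB1, by the interaction test of limma (response in spheroids minus response in monolayers, log2, n = 3 in each of 4 groups), as did 15.8% of all genes tested. The difference for Sox8, the relative of Sox9, was -1.09, which is a description and no test, because Sox8 passed the filter only through the TGFB1 monolayers, the group where it is high. Its levels were at or below 2.71 scaled TPM. Its adjusted p was over 0.05 in 7 of 12 single-library omissions and also with the replicate block (0.0503), a pseudocount of 0.1 (0.0655) and untreated monolayers 1 and 2 averaged (0.0719). The cartilage-list genes Chst11, Fgfr3 and Wwp2 differed by 1.16, 1.33 and 1.11, and none of these 3 calls was lost in the 12 single-library omissions.

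In the gonadal list the transcription factor gene Gata4 differed by -0.97 (adjusted p = 0.0334) and Nr5a1, which encodes steroidogenic factor SF-1, by -1.04 (0.00113). The difference for Cyp26b1, an enzyme that degrades retinoic acid, was -1.57 (adjusted p = 0.0273). It is a description and no test, because Cyp26b1 passed the filter only through the untreated spheroids, the group where it is high. In the vascular list the difference for Cdh5 was 3.5 (adjusted p = 0.000976). That too is a description and no test, because Cdh5 passed the filter only with the TGFB1 spheroids, the group where it is high. The receptor gene Notch1 differed by 1.67 (adjusted p = 0.0133), the ephrin gene Efnb2 by -1.55 (0.00682) and the guidance receptor gene Robo4 by -3.21 (0.0317). In the other lists, the laminin gene Lamb1 differed by -0.79 (adjusted p = 0.0345), the WNT effector Lef1 by 1.12 (0.0159), Myc by -2.14 (0.0276), the mesothelial marker Lrrn4 by -1.64 (0.017) and the mitosis marker Ccnb1 by 0.97 (0.0356). Of the 12 single-library omissions, 9 lost the call of Robo4, 8 that of Gata4, 7 each those of Cyp26b1, Lamb1 and Ccnb1, and 6 that of Myc, while those of Nr5a1, Cdh5, Notch1, Efnb2, Lef1 and Lrrn4 were lost in none.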

How the results depend on the processing

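The calls of Sox9, Sox12 and Sox4 between spheroids and monolayers, and those of Sox4 with TGFB1, kept their direction and their side of the threshold under all alternatives run. Those of Sox13 did so wherever it was tested, but a filter of at least 5 left it out, since its highest value was 3.20. The adjusted p of Sox6 in BRCA1 ko stayed under 0.05 as well (limma, 0.0088 with no filter). That is a description, because Sox6 passed the filter only through the ko group. The BRCA1 counts of SOX genes below include Sox6. Over the tested genes among the 10 (Sox8 left out) and all settings, 557 values kept both, 11 lost a call, 10 gained one and 13 changed sign. Deviations of same-numbered libraries correlated at -0.32 to 0.186 for the spheroid experiment, -0.0783 to 0.331 for Snail and -0.167 to -0.0534 for BRCA1. Those of differently numbered libraries correlated at -0.307 to 0.368, -0.214 to 0.254 and -0.188 to 0.209. With 3 libraries per group, these values cannot decide whether replicate numbers pair the libraries. With the replicate number as a block, 1 SOX gene was called with TGFB1 in monolayers (Sox12 was lost, adjusted p = 0.0695), and 16 genes were called for Snail and 433 for BRCA1, against 210 and 1828 without the block. In TGFB1 monolayers the SOX count of 2 also became 1 with a pseudocount of 0.1, with no filter, with equal sums, with untreated monolayers 1 and 2 averaged, and in each omission. Library weights gave 2 SOX genes for TGFB1 in spheroids, 1 for the interaction and 5 for BRCA1, and 6431, 4385 and 11536 called genes for TGFB1 in monolayers, the interaction and BRCA1. Fits of only the 6 libraries compared called 3585 genes for TGFB1 in monolayers and 2769 in spheroids, and the averaged monolayers gave 1331. No filter gave 54 genes for Snail and 1091 for BRCA1, a filter of 5 gave 1050 and equal sums 812 for BRCA1. With 1 library left out, SOX counts ran from 1 to 1 for TGFB1 in monolayers, 1 to 2 in spheroids, 0 to 1 for the interaction and 1 to 3 for BRCA1, and counts of all genes from 1234 to 1751, 3295 to 4894, 1402 to 2741 and 284 to 8420, with 23 to 75 for Snail. Uncalled values that changed sign were Sox5 with TGFB1 in spheroids (-0.01 with equal sums, -0.04 to 0.27 over omissions), Sox13 there (-0.59 to 0.09), Sox9 with TGFB1 in monolayers (-0.00 to 0.10), Sox4 in the interaction (-0.03 with equal sums), Sox13 in the interaction (0.09 with library weights, -0.41 to 0.26 over omissions), Sox4 with Snail (-0.11 to 0.07), and in BRCA1 ko Sox4 (0.00 with equal sums) and Sox5 (-0.04 with size factors, -0.12 to 0.40 over omissions). The causes were not tested. Single-library omissions leave a group with 2 libraries. Read depth is unknown, so no limit of detection can be given for the SOX genes listed at or near 0.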
